A study of Homo sapiens with 10 samples.

Results

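SET and a group of acidic histone chaperones were followed by RNA sequencing in a U2OS-derived pair of cell lines. The 9 entries were chosen by gene symbol: SET, its pseudogene copy SETP20, ANP32A, ANP32B, ANP32E, NAP1L1, NAP1L4, NPM1 and PTMA, out of 25593 entries in each library. U2OS is a human osteosarcoma cell line. One derived line came from a control CRISPR/Cas9 construct and is labelled p53 WT, and the other is labelled p53 KO. The design text describes a line pair obtained after clone identification and names SET as the CRISPR target while describing a p53 knockout. Levels are in FPKM, fragments scaled for transcript length and library size, and a gene-level FPKM does not test an edit, hence the names WT-labelled and KO-labelled used below. Cells of each line were given siRNA for 96 h, a control or one directed at SET, whose sequence and number the sources used here do not state. Of 10 libraries, 3 were WT-labelled with the control siRNA, 3 were WT-labelled with SET siRNA, 2 were KO-labelled with the control siRNA and 2 were KO-labelled with SET siRNA. Replicates are labelled biological with no word on separate cultures, so p-values reflect only how far these 10 libraries spread, which may be technical.

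SET, also called TAF-I or I2PP2A, is a nuclear histone chaperone of the NAP family. It is a subunit of the INHAT complex, which covers histone tails and limits their acetylation, and it inhibits protein phosphatase 2A. Its acidic domain binds unacetylated p53. ANP32A, ANP32B and ANP32E are leucine-rich repeat proteins with an acidic tail. ANP32A works with SET in INHAT and as a phosphatase inhibitor, and ANP32E removes the histone variant H2A.Z from chromatin. NAP1L1 and NAP1L4 carry H2A-H2B dimers, NPM1 (nucleophosmin) is a nucleolar chaperone of core histones, and PTMA (prothymosin alpha) is a small disordered protein that binds linker histone H1.

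What these proteins share by sequence is a run of aspartate and glutamate, and it can be read from the coding sequences in the GENCODE v29 annotation of GRCh38. All codons that start with GA encode aspartate or glutamate. The most acidic window of 50 codons is shown for SET and for at least 1 gene of each other family, 5′ to 3′ on the coding strand, with the aspartate and glutamate codons in capitals.
SET: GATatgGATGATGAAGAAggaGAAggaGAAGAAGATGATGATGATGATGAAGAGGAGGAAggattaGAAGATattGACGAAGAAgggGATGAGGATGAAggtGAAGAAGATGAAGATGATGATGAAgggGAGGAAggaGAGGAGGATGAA
ANP32B: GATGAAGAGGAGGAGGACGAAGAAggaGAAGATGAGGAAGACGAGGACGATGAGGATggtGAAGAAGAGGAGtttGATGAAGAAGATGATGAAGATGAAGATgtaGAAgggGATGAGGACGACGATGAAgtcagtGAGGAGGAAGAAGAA
NAP1L1: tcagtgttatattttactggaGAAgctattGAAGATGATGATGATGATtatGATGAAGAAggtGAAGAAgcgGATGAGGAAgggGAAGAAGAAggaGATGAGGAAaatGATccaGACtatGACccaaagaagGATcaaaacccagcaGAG
NAP1L4: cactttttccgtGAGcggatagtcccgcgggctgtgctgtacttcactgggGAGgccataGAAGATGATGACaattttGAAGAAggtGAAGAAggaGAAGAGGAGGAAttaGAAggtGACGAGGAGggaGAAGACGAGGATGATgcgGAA
NPM1: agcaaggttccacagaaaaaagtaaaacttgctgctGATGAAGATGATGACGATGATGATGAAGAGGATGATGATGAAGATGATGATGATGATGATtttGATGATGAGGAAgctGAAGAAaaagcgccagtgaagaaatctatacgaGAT
PTMA: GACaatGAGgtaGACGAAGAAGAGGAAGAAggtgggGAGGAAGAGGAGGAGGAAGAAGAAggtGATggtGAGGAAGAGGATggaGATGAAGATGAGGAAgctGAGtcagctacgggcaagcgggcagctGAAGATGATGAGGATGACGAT

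Such codons made up 31.8% of the 277 codons of SET and 80% of its codons 224 to 273. ANP32B had the most acidic window of the 8 coding genes, with 86% over codons 166 to 215. The highest shares were 78% in ANP32E, 74% in ANP32A and 68% in PTMA, whose whole coding sequence of 111 codons was 48.6% acidic. NAP1L1 reached 52% near its end and NAP1L4 48%, which were lower than in SET although all 3 belong to the NAP family. NPM1 reached 54% in an internal stretch (codons 149 to 198) and only 14% in its last 50 codons, so its acidic run is not terminal as in SET.

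**Figure D1:**
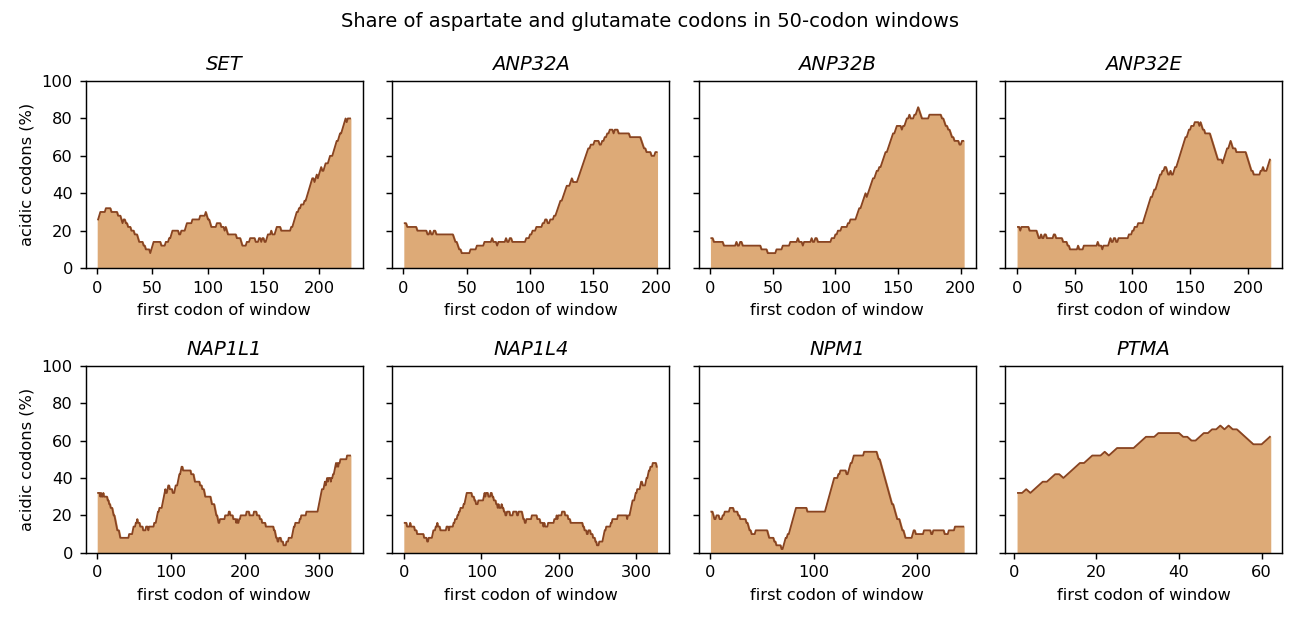
Share of aspartate and glutamate codons (percent, vertical axis) in windows of 50 codons, by the first codon of the window, along the coding sequence of the 8 coding genes. SET and the ANP32 genes rise towards the end of the coding sequence, to 80% in SET and 86% in ANP32B, while NPM1 peaks inside at 54%.

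SETP20 is a pseudogene copy of SET on chromosome 4. Its annotated transcript on GRCh38 (chr4:109553243-109554094, minus strand, 852 bases) aligned to a SET transcript over 847 bases with 788 identical, an identity of 93.0%. The stretch of 120 bases with the most differences between them is shown, because reads from the pair are most distinct there. It runs from bases 191 to 310 of the SET coding sequence and bases 230 to 349 of the SETP20 transcript, and capitals mark the 14 bases that differ.
SET: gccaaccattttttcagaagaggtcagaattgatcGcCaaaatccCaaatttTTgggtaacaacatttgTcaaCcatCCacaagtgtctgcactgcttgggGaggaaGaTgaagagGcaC
SETP20: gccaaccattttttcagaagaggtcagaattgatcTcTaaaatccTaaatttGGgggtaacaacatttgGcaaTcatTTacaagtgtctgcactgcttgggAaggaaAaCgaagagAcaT

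Of the 803 windows of 50 bases in the SETP20 transcript, 65 (8.09%) occur unchanged in a SET transcript, and 296 (36.9%) occur with at most 2 edits. At 100 bases none of 753 windows was unchanged and 66 (8.76%) matched with at most 2 edits. All these windows come from the annotated transcript. The SETP20 entry behind the FPKM values spans 2531 bases in the authors' coordinates, longer than that transcript. That full span was not compared with SET, so these shares do not measure how many SETP20 reads could come from SET. The sources used here give neither the read length nor the treatment of reads with several matches. SETP20 values are therefore uncertain as a measure of a separate transcript. The same limit holds for genes with many annotated pseudogene copies, of which GENCODE v29 names 45 for NPM1, 19 for SET and 7 for PTMA. It also holds for ANP32A, whose copy ANP32AP1 was at 51.2 FPKM in WT-labelled control cells, beside 92.6 for ANP32A. Between the coding sequences of the 3 ANP32 genes, between NAP1L1 and NAP1L4, and between SET and either NAP1 gene, no window of 50 bases was shared.

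All 9 genes were among the 14813 entries tested, which had at least 1 FPKM in at least 2 libraries. SETP20 passed this filter only through the control libraries. Each library had 13804 to 14153 genes at 1 FPKM or more, and the authors' confidence intervals had a median half-width of 7.44 to 9.21% of FPKM. The sources used here do not give the sequencing depth. For the 7 genes ANP32A, ANP32B, ANP32E, NAP1L1, NAP1L4, NPM1 and SET the half-width was 1.67 to 8.74% in each library, and for SETP20 it was 19.2 to 81.6%. CDKN1A, the p53-activated cell cycle inhibitor, was at 153 to 169.8 FPKM in WT-labelled control libraries and 6.51 to 6.84 in KO-labelled control libraries. Of 10 mesenchymal and osteosarcoma markers, 7 had a mean of at least 1 FPKM in every group, led by VIM, while COL1A2, TWIST1 and NT5E were near 0. Their summed level was 2025 to 2077 FPKM (WT control), 1296 to 1411 (WT with SET siRNA), 2059 to 2185 (KO control) and 1551 to 1684 (KO with SET siRNA). The summed level of 6 epithelial markers, mostly KRT8 and KRT18, was 655 to 689, 490.4 to 502, 281 to 319 and 272 to 276 in the same order. Blood and endothelial marker sums stayed at or below 0.564 and 0.921, with HBB at 0 in all libraries. The part of these marker differences in the results was not tested. In bulk samples fewer cells of a type and less RNA per cell cannot be told apart.

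In WT-labelled control cells the order by FPKM, which is per transcript length, was PTMA (668 ± 24.2, SD), NPM1 (460.8 ± 17.5), ANP32B (125 ± 5.92), SET (124 ± 2.64), NAP1L1 (102 ± 3.82), ANP32A (92.6 ± 1.17), NAP1L4 (64.6 ± 0.923), ANP32E (54.7 ± 2.99) and SETP20 (4.75 ± 1.5), each with n = 3. ANP32B and SET were the neighbours in this order whose libraries overlapped. In KO-labelled control cells (n = 2) SET stood above ANP32B, at 164 ± 8.22 against 138 ± 0.267. There ANP32B and NAP1L1 (133 ± 12.2) overlapped. Within each library SET ranked 678th to 729th of all entries in WT-labelled control cells and 427th to 495th in KO-labelled control cells.

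**Figure D2:**
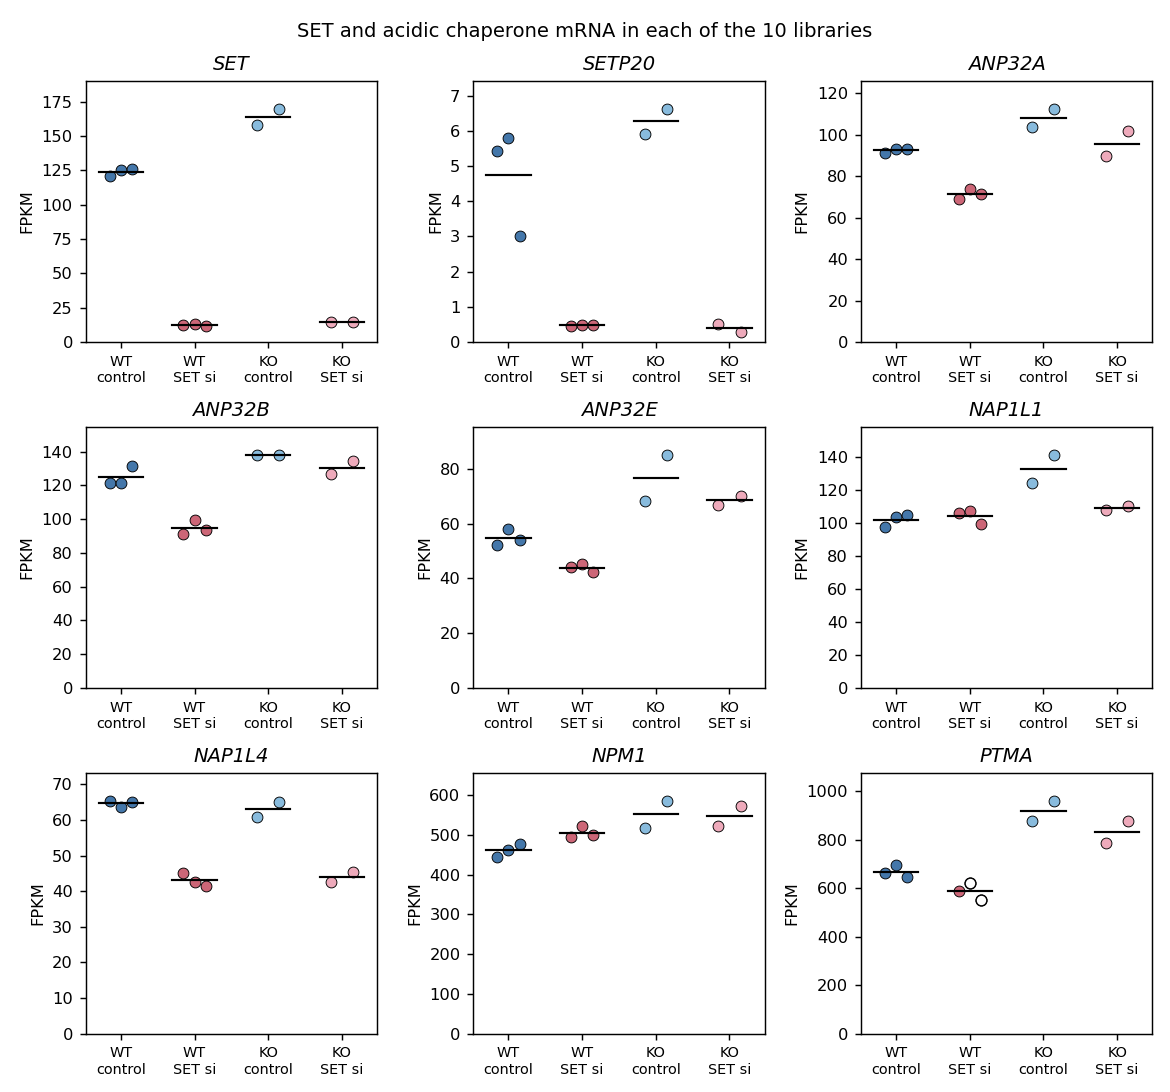
FPKM (vertical axes, linear from 0) of SET, SETP20 and 7 acidic chaperones in each of the 10 libraries. Points are libraries, horizontal bars group means, and the 2 open PTMA points carry a failed status in the authors' files. SET, SETP20, NAP1L4, ANP32A, ANP32B and PTMA are lower in every SET siRNA library than in every control of the same line. Over all tested genes the siRNA groups did not overlap for 64.3% in WT-labelled and 67.5% in KO-labelled cells.

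SET mRNA with SET siRNA was at 10.1% of its control level in WT-labelled cells and at 9.10% in KO-labelled cells. SET (chromosome 9, 131445934 to 131458675 in the authors' coordinates) was at 121, 125 and 126 FPKM in WT-labelled control libraries 1 to 3. It was at 12.3, 13.3 and 12.01 FPKM in the WT-labelled SET siRNA libraries. KO-labelled libraries were at 158 and 169.7 FPKM with control siRNA and at 14.9 FPKM in both libraries with SET siRNA. Every SET siRNA library was therefore far below every control library of either line. In WT-labelled cells SET fell by 3.21 on the log2(FPKM + 1) scale (95% interval -3.32 to -3.11, limma, adjusted p = 1.26e-09), a 9.91-fold drop in FPKM. It fell by 3.37 in KO-labelled cells (-3.50 to -3.24, adjusted p = 5.14e-09). The difference between the lines in this response was 0.16 (limma, adjusted p = 0.146) and did not pass the threshold. Its rank fell to 6857 to 7214 in the WT-labelled libraries and 6246 to 6281 in the KO-labelled ones. Of all tested genes, 10 in WT-labelled and 7 in KO-labelled cells fell further than SET on this scale.

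SETP20 (chromosome 4, 110474399 to 110476929 in the authors' coordinates) followed SET at a low level. It was at 5.43, 5.79 and 3.03 FPKM in WT-labelled control libraries and at 0.464, 0.497 and 0.497 FPKM with SET siRNA. The KO-labelled controls were at 5.92 and 6.62 FPKM, and the KO-labelled libraries with SET siRNA at 0.507 and 0.291. The treated libraries all lay below 1 FPKM, and the third WT-labelled control library was the lowest of the 5 controls. The log2 change was -1.91 in WT-labelled cells and -2.38 in KO-labelled cells, given as a description without a test because the entry passed the filter through its controls. The pseudocount of 1 compresses these values, and with a pseudocount of 0.1 they were -3.0 and -3.71. On the FPKM scale 10.2% of the control mean remained in WT-labelled and 6.36% in KO-labelled cells, beside 10.1% and 9.10% for SET.

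Within a library, SETP20 was a small share of SET under either siRNA. In WT-labelled cells it was 4.49, 4.63 and 2.41% of the SET FPKM with control siRNA and 3.78, 3.75 and 4.14% with SET siRNA. The KO-labelled shares were 3.75 and 3.90% with control siRNA and 3.41 and 1.95% with SET siRNA. The mean log2 difference of the ratio over both lines was -0.25 (exact two-sided permutation test over 120 arrangements within lines, p = 0.5, adjusted p = 0.5 over 4 ratios). Without that low WT-labelled control library the difference was -0.40 and its adjusted p 0.0333. SETP20 passed the filter only through its controls, so neither value is read as a result. By the root mean square difference of centred log2(FPKM + 1) values over the 10 libraries, SETP20 was the entry nearest to SET (0.63). The 5 nearest entries outside the 9 genes were TPM4 (0.70), FOXS1 (0.75), LOC645638 (0.75), TNNC1 (0.79) and CXCL14 (0.80). TPM4, which encodes a tropomyosin of the actin cytoskeleton, went from 113 ± 1.11 to 29.7 ± 2.10 FPKM in WT-labelled cells (n = 3 and 3). In KO-labelled cells TPM4 went from 122 ± 11.2 to 31.5 ± 3.01 FPKM (n = 2 and 2). Next among the 9 genes was NAP1L4 (1.37), at place 610.

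Of the 8 coding genes, 6 fell in WT-labelled cells with SET siRNA and none rose. Beside this, 54.8% of all tested genes were called there at an adjusted p below 0.05, 24.0% as lower and 30.8% as higher. In KO-labelled cells 3 fell and none rose, beside 37.6% of all tested genes called, 17.9% lower and 19.8% higher. Their median log2 change was -0.34 in WT-labelled and -0.16 in KO-labelled cells, where the medians over all tested genes were 0.04 and 0.02. The siRNA was directed at SET, so its fall is in these counts by design, and SETP20 is left out of them. The FPKM ranges of the siRNA groups did not overlap for 7 of the 8 genes in WT-labelled cells, with 64.3% of all tested genes, and for 6 of 8 in KO-labelled cells, with 67.5%. Because these shares are high, separation of the groups alone sets no gene apart.

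**Figure D3:**
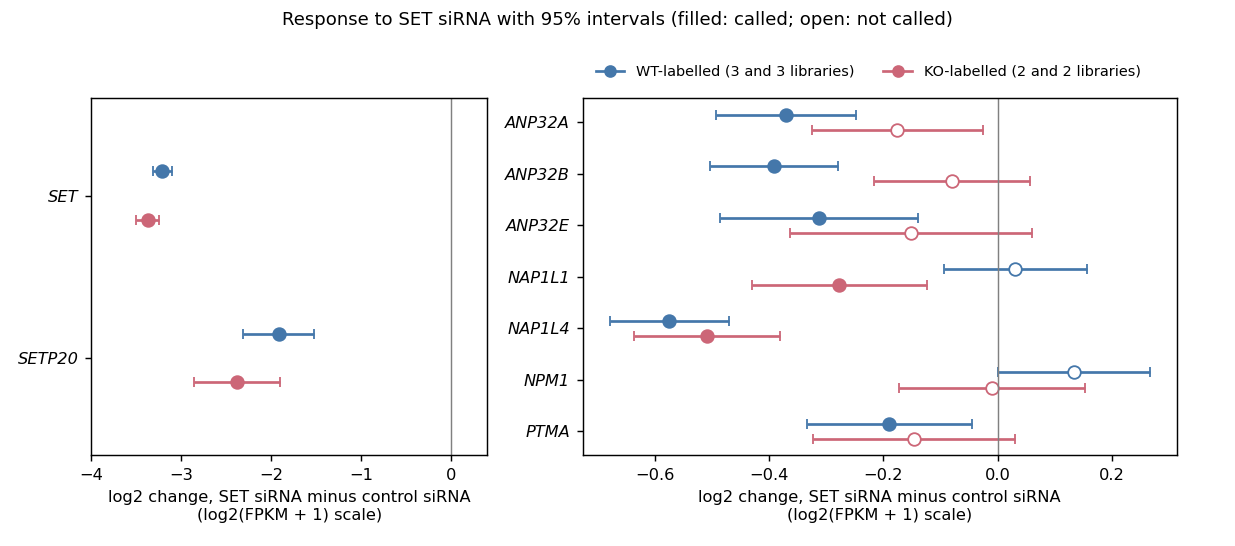
Log2 change with SET siRNA against control siRNA on the log2(FPKM + 1) scale (horizontal axis, differing between the panels), with 95% intervals from limma, in WT-labelled (blue) and KO-labelled (red) cells. Filled points had an adjusted p below 0.05, and those of SETP20 are descriptive because it passed the filter through its controls. SET changes by -3.21 and -3.37, NAP1L4 by -0.58 and -0.51, and the 3 ANP32 genes have filled points in WT-labelled cells only.

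ANP32A, ANP32B and ANP32E fell together in WT-labelled cells with SET siRNA. ANP32A (chromosome 15, 69070874 to 69113261) was at 91.2, 93.3 and 93.2 FPKM with control siRNA and at 69.0, 73.6 and 71.5 with SET siRNA. ANP32B (chromosome 9, 100745489 to 100778225) was at 122, 121 and 132 FPKM with control siRNA and at 91.0, 99.7 and 93.9 with SET siRNA. ANP32E (chromosome 1, 150190717 to 150208504) was at 52.1, 58.0 and 54.1 FPKM with control siRNA and at 44.1, 45.3 and 42.3 with SET siRNA. For each of the 3 genes, every SET siRNA library was below every control library. The log2 changes were -0.37 for ANP32A (95% interval -0.49 to -0.25, limma, adjusted p = 0.000393), -0.39 for ANP32B (-0.50 to -0.28, adjusted p = 0.000165) and -0.31 for ANP32E (-0.49 to -0.14, adjusted p = 0.0073). In FPKM these were changes of -22.9, -24.0 and -19.9%. Their summed FPKM went from 272 ± 7.04 to 210.1 ± 7.56 (n = 3 and 3).

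In KO-labelled cells none of the 3 passed the test. ANP32A was at 104 and 112 FPKM with control siRNA and at 89.6 and 102 with SET siRNA. ANP32B was at 138 FPKM in both control libraries and at 126 and 135 with SET siRNA. ANP32E was at 68.2 and 85.2 FPKM with control siRNA and at 66.9 and 70.2 with SET siRNA. The groups overlapped for ANP32E and not for ANP32A or ANP32B. The log2 changes were -0.18 for ANP32A (-0.33 to -0.03, limma, adjusted p = 0.0652), -0.08 for ANP32B (adjusted p = 0.333) and -0.15 for ANP32E (adjusted p = 0.234). ANP32A passed with median-of-ratios scaling (-0.20, adjusted p = 0.0457), quantile normalization (-0.23, adjusted p = 0.038), and without the first KO-labelled control library (adjusted p = 0.0392) or the second SET siRNA library (adjusted p = 0.0239). ANP32E passed without the first control library (-0.31, adjusted p = 0.0108).

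The response of ANP32B differed between the lines by -0.31 (WT-labelled minus KO-labelled, 95% interval -0.49 to -0.14, limma, adjusted p = 0.0249). For ANP32A this difference was -0.20 (-0.39 to -0.00, adjusted p = 0.135) and for ANP32E -0.16 (adjusted p = 0.369), so neither was shown to respond differently in the 2 lines. Of the 8 coding genes 2 passed this test of the difference, ANP32B and NAP1L1, beside 19.1% of all tested genes called (8.60% with a lower response in WT-labelled cells and 10.5% with a higher one). The ANP32B difference lost its call with no filter on low values (adjusted p = 0.0521), with quantile normalization (0.0752), and without the first WT-labelled SET siRNA library (0.0583), the second KO-labelled control library (0.0589), or the first (0.0521) or second (0.0951) KO-labelled SET siRNA library. The ratios among the ANP32 genes did not pass a test of the siRNA difference. ANP32A was 70.8 to 81.4% of ANP32B in every library, with a mean log2 difference of -0.04 between siRNAs (exact permutation test, p = 0.45, adjusted p = 0.5). For the ratio of ANP32E to ANP32A the difference was 0.04 (exact permutation test, p = 0.467, adjusted p = 0.5).

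NAP1L4 fell in both lines with SET siRNA, and NAP1L1 fell in KO-labelled cells. NAP1L4 (chromosome 11, 2965660 to 3013607) was at 65.4, 63.6 and 64.9 FPKM in WT-labelled control libraries and at 45.1, 42.7 and 41.4 with SET siRNA. KO-labelled libraries were at 60.8 and 65.1 FPKM with control siRNA and at 42.6 and 45.3 with SET siRNA. All 5 SET siRNA libraries lay below all 5 controls, and the levels of the 2 lines were close under either siRNA. In WT-labelled cells NAP1L4 fell by 0.58 on the log2 scale (95% interval -0.68 to -0.47, limma, adjusted p = 1.16e-05) and by 0.51 in KO-labelled cells (-0.64 to -0.38, adjusted p = 0.000203), which are changes of -33.4 and -30.2% in FPKM. The difference between the lines was -0.07 (adjusted p = 0.544). SET and NAP1L4 were the 2 coding genes called in both lines in every alternative tried.

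NAP1L1 (chromosome 12, 76438672 to 76478738) was at 97.5, 103 and 105 FPKM in WT-labelled control libraries and at 106, 107 and 99.5 with SET siRNA, and these groups overlapped. KO-labelled libraries were at 124 and 141 FPKM with control siRNA and at 108 and 110.2 with SET siRNA, without overlap. The log2 change was 0.03 in WT-labelled cells (-0.09 to 0.16, limma, adjusted p = 0.654), and with median-of-ratios scaling it was -0.01. NAP1L1 fell by 0.28 in KO-labelled cells (-0.43 to -0.12, adjusted p = 0.0114), a change of -17.8% in FPKM. This call was lost in a fit of only the KO-labelled libraries (adjusted p = 0.0585) and without the second control (0.059) or first SET siRNA library (0.0676). An overlapping entry inside its span, LOC100652897 (chromosome 12, 76451107 to 76452402), was at 7.43 to 12.7 FPKM, and the sources used here do not say whether the counting used strand.

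The difference between the lines in the response of NAP1L1 was 0.31 (95% interval 0.11 to 0.51, limma, adjusted p = 0.0389), of the opposite sign to that of ANP32B. It lost its call with no filter on low values (adjusted p = 0.0851), with no variance trend (0.0545), and when any 1 of 7 libraries was left out (0.0626 to 0.13): the first or second WT-labelled control, the first or second WT-labelled SET siRNA library, the second KO-labelled control, or either KO-labelled SET siRNA library. In every library NAP1L4 was lower than NAP1L1. NAP1L4 was 67.1, 61.5 and 62.0% of NAP1L1 in WT-labelled control libraries and 42.7, 39.8 and 41.6% with SET siRNA. The KO-labelled shares were 49.1 and 46.1% with control siRNA and 39.5 and 41.1% with SET siRNA. The ratio was lower with SET siRNA in both lines, by 0.62 and 0.24 on the log2 scale, while the KO-labelled controls already lay below the WT-labelled ones. The mean log2 difference was -0.43 (exact two-sided permutation test, p = 0.0167, adjusted p = 0.0667 over 4 ratios). This is the smallest p that the 120 arrangements allow. A ratio that reaches it alone cannot have an adjusted p below 0.0667, so the test could not call it. That it did not pass is therefore not read as a result. Without the third WT-labelled control library the difference was -0.44 (exact permutation test, adjusted p = 0.0333). The adjusted p of SETP20 to SET was 0.0333 in that run too. Because the adjustment runs over the 4 ratios together, the lower adjusted p is not a result about NAP1L4 and NAP1L1 alone.

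**Figure D4:**
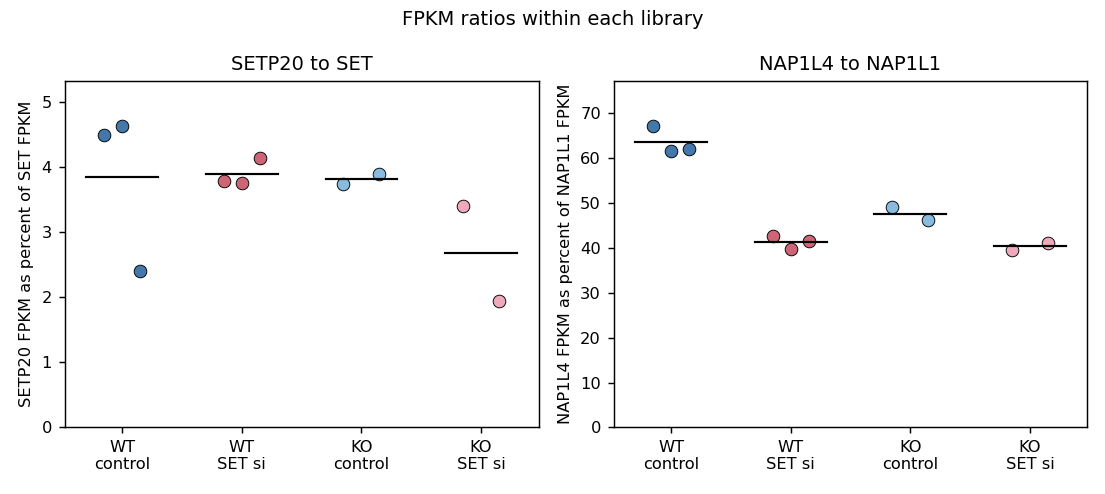
FPKM of SETP20 as a percent of SET (left) and of NAP1L4 as a percent of NAP1L1 (right) in each of the 10 libraries, with group means as bars and both axes from 0. The NAP1L4 share is 61.5 to 67.1% in WT-labelled controls and 39.5 to 42.7% in all libraries with SET siRNA, and the SETP20 share lies between 1.95 and 4.63%.

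NPM1 and PTMA were the most abundant of the group, and their mean FPKM changed by -12.3 to 9.75% with SET siRNA. NPM1 (chromosome 5, 170814708 to 170837888) was at 443, 461 and 478 FPKM in WT-labelled control libraries and at 495, 523 and 499 with SET siRNA. NPM1 in KO-labelled cells was at 517 and 586 FPKM with control siRNA and at 523 and 572 with SET siRNA. The WT-labelled groups did not overlap, with the SET siRNA libraries higher, and the KO-labelled groups did. The log2 change was 0.13 in WT-labelled cells (95% interval 0.00 to 0.27, limma, adjusted p = 0.0806) and -0.01 in KO-labelled cells (adjusted p = 0.935). In WT-labelled cells it passed in a fit of only those libraries (adjusted p = 0.0326) and without the first (0.0408) or second (0.0409) KO-labelled control library.

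PTMA (chromosome 2, 232573235 to 232578251) was at 663, 694 and 647 FPKM in WT-labelled control libraries and at 589, 620.1 and 549 with SET siRNA. Libraries 2 and 3 of the SET siRNA group carry a failed status in the authors' files. KO-labelled libraries were at 876 and 960.2 FPKM with control siRNA and at 784 and 876 with SET siRNA. The WT-labelled groups did not overlap, and the KO-labelled groups touched within rounding. In WT-labelled cells PTMA fell by 0.19 on the log2 scale (95% interval -0.33 to -0.04, limma, adjusted p = 0.0316). The KO-labelled value was -0.15 (adjusted p = 0.172). The WT-labelled call was lost with no filter on low values (adjusted p = 0.0884), and without control library 1 (0.0661) or 2 (0.103) or SET siRNA library 1 (0.0658) or 3 (0.113). Without the 2 libraries of failed status the change was -0.18, with 1 SET siRNA library left in the group. That alternative was added after the data were seen.

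Between the lines, most of these genes were higher in KO-labelled cells. With control siRNA 6 of the 8 coding genes were higher and none lower, beside 47.9% of all tested genes called, 25.7% higher and 22.2% lower. The FPKM ranges of the lines did not overlap for 7 of the 8, and for 63.1% of all tested genes. SET was higher by 0.40 on the log2 scale (164 against 124 FPKM, limma, adjusted p = 0.000315). ANP32E was higher by 0.47 (76.7 ± 12 against 54.7 ± 2.99 FPKM, adjusted p = 0.00199) and PTMA by 0.46 (918 ± 59.3 against 668 ± 24.2 FPKM, adjusted p = 0.000897). NAP1L1 was higher by 0.37 (adjusted p = 0.00121), NPM1 by 0.26 (adjusted p = 0.0109) and ANP32A by 0.22 (adjusted p = 0.0152). SETP20 (0.37, adjusted p = 0.141), ANP32B (0.14, adjusted p = 0.0573) and NAP1L4 (-0.04, adjusted p = 0.573) did not pass. The median over the 8 genes was 0.32, with 0.02 over all tested genes. The second KO-labelled control library was above the first for all 9 genes, and without it ANP32A (0.16, adjusted p = 0.115) and NPM1 (0.17, adjusted p = 0.0955) lost their calls. ANP32B passed with quantile normalization (0.20, adjusted p = 0.0142) and without the third WT-labelled control library (0.18, adjusted p = 0.0271).

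With SET siRNA 5 of the 8 coding genes were higher in KO-labelled cells and none lower, beside 48.4% of all tested genes called, 23.6% higher and 24.8% lower. The ranges of the lines did not overlap for 7 of the 8, and for 70.2% of all tested genes. ANP32E was higher by 0.63 (68.5 ± 2.34 against 43.9 ± 1.51 FPKM, limma, adjusted p = 0.000288) and PTMA by 0.50 (829.8 ± 64.7 against 586 ± 35.6 FPKM, adjusted p = 0.000402). ANP32B was higher by 0.46 (131 ± 5.71 against 94.9 ± 4.43 FPKM, adjusted p = 0.000144) and ANP32A by 0.42 (95.7 ± 8.72 against 71.4 ± 2.30 FPKM, adjusted p = 0.000452). The residual SET mRNA was also higher, by 0.24 (14.9 ± 0.0302 against 12.5 ± 0.656 FPKM, adjusted p = 0.00461). NAP1L1 (0.07, adjusted p = 0.419), NAP1L4 (0.03, adjusted p = 0.685) and NPM1 (0.11, adjusted p = 0.184) did not pass. SETP20, below 1 FPKM in all of these libraries, was at -0.09, given without a test. SET was 7.33% of the summed FPKM of the 8 coding genes in WT-labelled control cells and 7.62% in KO-labelled control cells. With SET siRNA it was 0.855 and 0.812%. The sum of the other 7 coding genes went from 1567 ± 31.4 to 1449 ± 57.9 FPKM in WT-labelled cells (n = 3 and 3) and from 1988 ± 141 to 1825 ± 120 in KO-labelled cells (n = 2 and 2).

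Other histone chaperones and chromatin factors listed with them fell in WT-labelled cells with SET siRNA more often than they rose. Of 31 listed and tested, 19 fell, 3 rose and 9 did not pass, where 24.0% of all tested genes fell and 30.8% rose, with a median log2 change of -0.22, where the median over all tested genes was 0.04. OIP5, a subunit of the Mis18 complex that licenses centromeric chromatin, fell from 31.6 ± 2.91 to 15.3 ± 0.178 FPKM (log2 change -1.0, limma, adjusted p = 5.07e-06). CHAF1A, the large subunit of the replication chaperone CAF-1, fell from 22.3 ± 0.800 to 13.0 ± 0.392 FPKM (-0.73, adjusted p = 3.79e-06). MCM2, a helicase subunit that also binds H3-H4, fell from 74.0 ± 1.85 to 44.9 ± 2.19 FPKM (-0.71, adjusted p = 1.88e-05). HJURP, the chaperone of the centromeric histone CENPA, fell from 45.0 ± 0.358 to 28.2 ± 0.536 FPKM (-0.66, adjusted p = 1.32e-06). The 3 that rose, named after their values were seen, were SUPT6H (0.20), SRCAP (0.19) and INO80 (0.18).

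In KO-labelled cells 7 of the 31 fell, 10 rose and 14 did not pass, where 17.9% of all tested genes fell and 19.8% rose, with a median of 0.09, where that over all tested genes was 0.02. OIP5 fell there as well (-0.69, limma, adjusted p = 0.000353), with ASF1A (-0.58, adjusted p = 0.00266), which hands H3-H4 to other chaperones, FKBP3 (-0.51, adjusted p = 0.000505) and SUPT16H (-0.47, adjusted p = 0.000255), a subunit of FACT. ASF1A (-0.27, adjusted p = 0.0248), FKBP3 (-0.22, adjusted p = 0.00763) and SUPT16H (-0.60, adjusted p = 7.17e-06) were also called lower in WT-labelled cells. The response differed between the lines for 15 of the 31, where 19.1% of all tested genes passed. It was lower in WT-labelled cells for 14 of these (8.60% of all tested genes), with MCM2 (-0.96, adjusted p = 0.000543), CHAF1A (-0.83, adjusted p = 0.000347), HJURP (-0.75, adjusted p = 0.000151) and TONSL (-0.75, adjusted p = 0.00565) the largest. FKBP3 (0.29, adjusted p = 0.0484) was the other one. ANP32B and these genes thus had line differences of the same sign, and NAP1L1 had one of the sign of FKBP3. With SET siRNA 19 of the 31 were higher in KO-labelled than in WT-labelled cells and 2 lower (all genes 23.6% and 24.8%, list median 0.25, all genes -0.00), led by HJURP (1.02, adjusted p = 1.39e-07) and MCM2 (1.00, adjusted p = 4.89e-06). With control siRNA 10 were higher and 3 lower (all genes 25.7% and 22.2%, list median 0.07, all genes 0.02), led by ASF1A (0.52, adjusted p = 0.00211) and NUCKS1 (0.50, adjusted p = 0.00088).

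**Figure D5:**
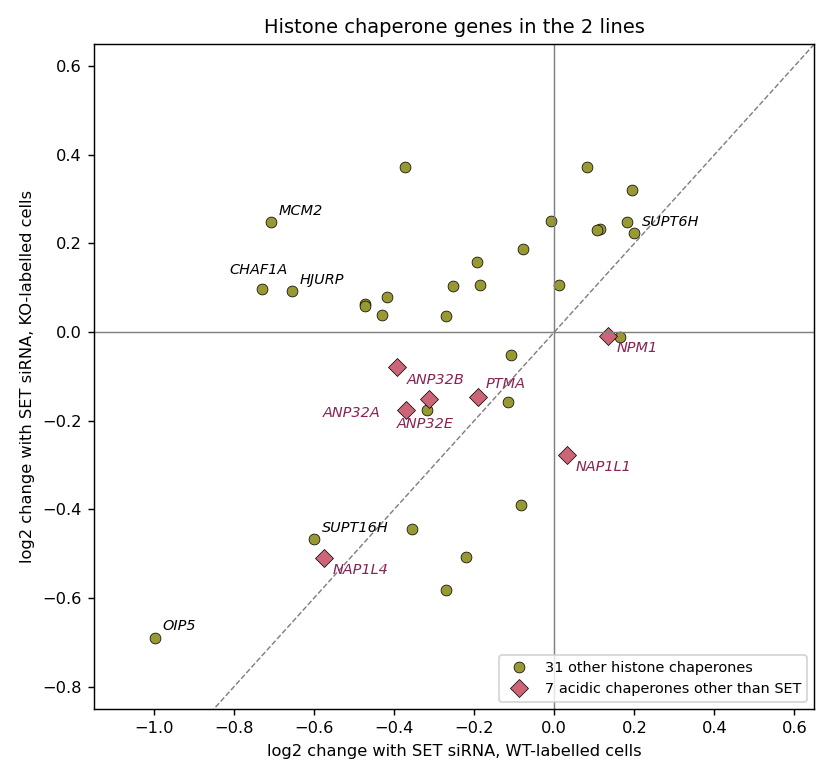
Log2 change with SET siRNA in WT-labelled (horizontal) and KO-labelled cells (vertical) on the log2(FPKM + 1) scale. Circles are the 31 other histone chaperones and chromatin factors listed with them, and diamonds the 7 acidic chaperones other than SET. The dashed line marks equal change. MCM2, CHAF1A and HJURP lie at -0.66 or lower on the horizontal axis and above 0 on the vertical one, while OIP5, SUPT16H and NAP1L4 are below 0 on both.

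Among 22 genes of the SET complex and SET partners, 12 fell, 4 rose and 6 did not pass in WT-labelled cells (median -0.19, all genes 0.04), where 24.0% of all tested genes fell and 30.8% rose. In KO-labelled cells 4 fell, 3 rose and 15 did not pass (median 0.01, all genes 0.02), where 17.9% of all tested genes fell and 19.8% rose. PPP2CA, a catalytic subunit gene of the phosphatase that SET inhibits, fell from 54.9 ± 2.30 to 28.1 ± 1.08 FPKM in WT-labelled cells (log2 change -0.94, limma, adjusted p = 8.81e-07). In KO-labelled cells PPP2CA fell from 59.2 ± 1.93 to 28.0 ± 0.949 FPKM (-1.05, adjusted p = 5.49e-06). PPP2CB, the other catalytic subunit gene listed, rose from 43.4 ± 2.14 to 53.2 ± 1.34 FPKM in WT-labelled cells (0.29, adjusted p = 0.00121). In KO-labelled cells PPP2CB was at 35.5 ± 2.62 and 36.8 ± 0.160 FPKM. PPP2CB is outside the naming rule and was named beside PPP2CA after its values were seen. SETBP1, which encodes a SET-binding protein, fell in both lines (-0.35, adjusted p = 0.00327, and -0.49, adjusted p = 0.00297). KAT2B, an acetyltransferase, fell by 0.73 in KO-labelled cells (adjusted p = 0.000203). SGOL2, a shugoshin that brings protein phosphatase 2A to centromeres, fell by 0.46 in WT-labelled cells (adjusted p = 0.00495). The response differed between the lines for 4 of the 22 (19.1% of all tested genes): CDK5R1 (-0.51, adjusted p = 0.0148), KPNB1 (-0.28, adjusted p = 0.0291), HMGB2 (-0.26, adjusted p = 0.0349) and, in the other direction, KAT2B (0.47, adjusted p = 0.017). Between the lines, 11 of the 22 were higher and 2 lower in KO-labelled cells with control siRNA (median 0.13, all genes 0.02), where 25.7% and 22.2% of all tested genes were. SGOL2 (0.59, adjusted p = 0.00309) and SETBP1 (0.51, adjusted p = 0.00111) led these. With SET siRNA 13 were higher and 3 lower (median 0.24, all genes -0.00), where 23.6% and 24.8% of all tested genes were, led by SGOL2 (0.86, adjusted p = 0.000289) and KIAA1524 (0.75, adjusted p = 3.69e-05).

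Of 13 relatives of these families 11 were tested, and they showed no common direction. In WT-labelled cells 3 rose, 3 fell and 5 did not pass (median -0.06, all genes 0.04), where 30.8% of all tested genes rose and 24.0% fell. In KO-labelled cells 3 rose, 5 fell and 3 did not pass (median -0.04, all genes 0.02), where 19.8% rose and 17.9% fell. NAP1L3 had the largest of these changes, from 8.78 ± 1.5 to 4.78 ± 0.338 FPKM in KO-labelled cells (log2 change -0.75, limma, adjusted p = 0.00529). Its WT-labelled value was -0.12 (adjusted p = 0.434), and the difference between the lines was 0.63 (adjusted p = 0.0576). TSPYL2, a NAP-domain protein, rose in both lines, from 16.8 ± 1.18 to 28.4 ± 2.46 FPKM in WT-labelled cells (log2 change 0.72, limma, adjusted p = 3.63e-05) and from 15.5 ± 0.623 to 23.0 ± 0.822 FPKM in KO-labelled cells (0.54, adjusted p = 0.00134). NAP1L5, close to the filter of 1 FPKM, fell from 2.87 ± 0.399 to 1.86 ± 0.154 FPKM in KO-labelled cells (-0.44, adjusted p = 0.039). In WT-labelled cells NAP1L5 was at 1.82 ± 0.314 and 2.40 ± 0.417 FPKM (0.26, adjusted p = 0.0809). TSPYL4 fell in both (-0.41, adjusted p = 0.000194, and -0.33, adjusted p = 0.00458). PTMS, the relative of PTMA called parathymosin, fell from 234 ± 11.5 to 176 ± 4.48 FPKM in WT-labelled cells (-0.40, adjusted p = 0.00408). NAP1L2 rose in WT-labelled cells (0.37, adjusted p = 0.000197) and fell in KO-labelled cells (-0.30, adjusted p = 0.00422), and the difference between the lines passed (0.68, adjusted p = 0.000942). That difference had the same sign as that of NAP1L1. Also called were the differences for NAP1L5 (0.70, adjusted p = 0.0296), TSPYL1 (0.50, adjusted p = 0.00137) and NPM3 (-0.25, adjusted p = 0.0332). ANP32AP1, a pseudogene copy of ANP32A, was at 51.2 ± 1.87 FPKM in WT-labelled control cells and 38.7 ± 1.76 with SET siRNA (-0.40, adjusted p = 0.00039), close to the -0.37 of ANP32A. In KO-labelled cells ANP32AP1 was at 51.8 ± 5.07 and 51.3 ± 0.992 FPKM (-0.01, not called), beside -0.18 for ANP32A. The difference between the lines was called for ANP32AP1 (-0.39) and not for ANP32A (-0.20). Reads that ANP32AP1 shares with ANP32A cannot be told apart from its own here.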

How the data were processed

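RNA sequencing of 10 libraries was analysed, grouped by line and siRNA as the sample labels give them. Per the labels' protocols, TruSeq libraries were made from total RNA. The submitters' processing notes name Cufflinks 2.0.2, TopHat2 2.0.4 and bcl2fastq 1.8.4. Per the file headers, the authors deposited FPKM for each gene, its confidence interval and a status. The sources used here state no genome build, annotation or sequencing depth, so precision is described by the authors' intervals. Authors' coordinates are counted from 1, and no GRCh38 coordinate was set against them.

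Genes that reached 1 FPKM in 2 or more libraries were tested as log2(FPKM + 1), a scale on which the fold change of a low gene comes out too small. One model of the 4 groups over all 10 libraries was fitted with a variance trend in limma 3.58.1 (R 4.3.3). Calls were made at a Benjamini-Hochberg adjusted p below 0.05 over 14813 tested genes. Adjusted p-values of genes come from limma in all cases. The 5 contrasts were the siRNA response in each line, the difference between these responses, and the lines under each siRNA. The siRNA contrasts share control libraries with the line contrasts. The 4 ratios were tested by an exact permutation test. On simulated data with 200 of 14813 genes changed, the siRNA response in WT-labelled cells had 83% (1.5-fold) and 97% (2-fold) of the changed genes called and 6.25% of calls false. In KO-labelled cells these were 82, 97 and 3.24%, and between the lines with control siRNA 87, 96 and 1.08%. Low genes were left out of the changed ones, and the difference between the responses was not simulated. Far more genes were called in the data than were changed in the simulation. These rates therefore do not cover low genes, changes below 1.5-fold or that difference.

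The 9 genes and the gene lists were chosen with earlier results of these data known. Named genes were these 9, the 2 to 4 called genes of each list with the largest change, any gene alone in its direction, and the 5 most like SET. Sequences are GENCODE v29 transcripts (GRCh38). Acidic residues were counted as codons because no protein table was used. The alternatives changed the pseudocount, the filter on low values (none, or stricter), the scaling (median of ratios, quantile), the libraries fitted (only those compared, or 1 left out), the replicate block and the variance trend. Where a KO-labelled library was left out, its group held 1 library, so such a fit rests on an unreplicated group. Python 3.11.15 with numpy 2.4.6, pandas 2.3.3, Biopython 1.88, edlib 1.3.9 and matplotlib 3.10.9 did the rest.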

Additional observations from a re-analysis of the deposited data

Results flagged for a closer look

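ANP32B changed differently with SET siRNA in the 2 lines, by -0.31 on the log2 scale (WT-labelled minus KO-labelled, limma, adjusted p = 0.0249). ANP32B was lower in all 3 WT-labelled and both KO-labelled SET siRNA libraries than in their controls, by a mean of 24.0% and 5.36%. For NAP1L1 the difference was 0.31 (adjusted p = 0.0389), with overlapping groups in WT-labelled cells and lower values in both KO-labelled SET siRNA libraries. Both are listed because the test of the difference itself passed its threshold, and both lost it in several alternatives.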

How the results depend on the processing

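SET and NAP1L4 kept their calls and direction in both lines in every alternative run. The genes called for the siRNA response in KO-labelled cells went from 5571 to 3631 in a fit of only those libraries, and to between 3442 and 5816 with 1 library left out. For the difference between the lines they went from 2831 to between 1136 (without the first KO-labelled SET siRNA library) and 4587 (without the first KO-labelled control). Of the 9 genes, 2 were called for that difference, against 0 with no filter, 1 with quantile normalization, 1 with no variance trend, and 0 to 2 with 1 library left out. NAP1L1 in WT-labelled cells turned to -0.0101 with median-of-ratios scaling. With 1 library left out, the KO-labelled siRNA response ranged from -0.310 to 0.00619 for ANP32E and from -0.0985 to 0.0803 for NPM1 (0.0552 without the first SET siRNA library), positive for ANP32E without the second control and for NPM1 without it or the first SET siRNA library. The difference between the lines for PTMA ranged from -0.122 to 0.0367, with 0.00308 without the third WT-labelled SET siRNA library and 0.0229 without the first KO-labelled control. NAP1L4 between the control groups ranged from -0.0857 to 0.0101. Between the SET siRNA groups, SETP20 ranged from -0.203 to 0.0205 and NAP1L4 from -0.0151 to 0.0715, and with quantile normalization they turned to 0.0446 and -0.000632. None of these values that turned had passed the test, and the SETP20 value is given without one. The ratio of SETP20 to SET turned to 1.14 on FPKM + 1, since adding 1 raises low SETP20 values relative to SET. With 1 library left out this ratio ranged from -0.448 to -0.0447. ANP32E to ANP32A ranged from -0.0112 to 0.0912. NAP1L4 to NAP1L1 was -0.419 on FPKM + 1 (exact permutation test, adjusted p = 0.0333) and ranged from -0.451 to -0.406 with 1 library left out. It was at -0.437 without the third WT-labelled control (adjusted p = 0.0333). In both settings SETP20 to SET also had an adjusted p of 0.0333, and the adjustment over the 4 ratios links these values. SETP20 passed the filter only through its controls, so none of these adjusted p-values is read as a result. Apart from that effect of adding 1, the cause was not tested. SETP20 failed the filter in the fit of only the SET siRNA groups and gave no value there.

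Deviations of same-numbered libraries correlated at -0.091, -0.030 and 0.086 in WT-labelled and -0.006 in KO-labelled cells over 11123 genes. These values gave no sign of pairing by replicate number but cannot exclude it. With 2 libraries per group the KO-labelled value is the same for both pairs by construction. With the replicate block NPM1 in WT-labelled cells (adjusted p = 0.0263), ANP32A (0.02) and PTMA (0.0397) in KO-labelled cells and ANP32B between the control groups (0.16, adjusted p = 0.04) were called, and no other call on the 9 genes changed.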

Other observations

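Histone genes expressed outside replication were also measured. Of 11 genes for replication-independent histones, 6 fell, 2 rose and 3 did not pass in WT-labelled cells with SET siRNA (median log2 change -0.25, all tested genes 0.04), where 24.0% of all tested genes fell and 30.8% rose. In KO-labelled cells 3 fell, 3 rose and 5 did not pass (median 0.02, all tested genes 0.02), where 17.9% fell and 19.8% rose. H2AFX, whose product marks DNA breaks when phosphorylated, fell from 152 ± 11.4 to 76.1 ± 3.17 FPKM in WT-labelled cells (-0.98, limma, adjusted p = 5.02e-06). It was at 145 ± 15.1 and 149 ± 1.01 FPKM in KO-labelled cells, and the difference between the lines passed (-1.02, adjusted p = 0.00062). CENPA, the centromeric H3 variant that HJURP deposits, fell from 63.9 ± 5.67 to 34.9 ± 1.72 FPKM in WT-labelled cells (-0.85, adjusted p = 8.72e-06). In KO-labelled cells CENPA was at 94.2 ± 2.30 and 88.9 ± 3.23 FPKM, and the difference between the lines was -0.77 (adjusted p = 0.00202). H1F0, a linker histone of cells that divide little, rose in both lines (0.42, adjusted p = 8.4e-05, and 0.45, adjusted p = 0.000479), as did H2AFY, the macroH2A gene (0.20, adjusted p = 0.000716, and 0.43, adjusted p = 7.81e-05). H2AFZ, the variant that ANP32E removes, fell by 0.25 in WT-labelled cells (adjusted p = 0.00246). Its KO-labelled value was 0.02 (adjusted p = 0.841). It is outside the naming rule and was named for its link to ANP32E after its values were seen.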
